A study of Mus musculus with 72 samples.

Results

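Germ-free (GF) male mice that had lost the clock gene Bmal1 in the liver were compared with GF mice that kept it, in liver taken at zeitgeber time 10 (ZT10, hours after lights on), late in the light phase when mice mostly rest. The libraries were chosen by their labels and numbered 6 of the 72 in the series, 3 from WT mice and 3 from LKO mice. WT mice were Bmal1 fl/fl, with both copies of Bmal1 flanked by loxP sites, and LKO mice were Bmal1 fl/fl Albumin-Cre, in which Cre made from the Albumin promoter, active mainly in hepatocytes, removes part of the gene. All were adult mice of strain C57BL/6 by the labels, on a C57BL/6J background by the study's methods, held without microbes in isolators, housed singly and fed a standard autoclaved diet without restriction. Because WT mice carried no Cre, an effect of Cre itself and the effect of losing Bmal1 cannot be told apart. For comparison, the same genotypes kept with microbes under specific pathogen-free (SPF) conditions gave 6 libraries at ZT10, and GF mice at the other 5 ZT (ZT2, ZT6, ZT14, ZT18 and ZT22) gave 30.

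Bmal1, listed as Arntl, pairs with Clock or its relative Npas2 to switch on genes that carry an E-box in their control regions. Among those genes are the period and cryptochrome repressors, which shut the pair off again, and Nr1d1 and Nr1d2, nuclear receptors that silence Arntl, Npas2, Cry1 and Nfil3 through ROR elements, where Rora activates. Dbp, Tef and Hlf, activators that bind D-boxes, pass the rhythm on to metabolic genes, and Nfil3 competes with them for the same sites. In liver this network times the use and storage of glucose, fat, bile acids and foreign compounds, and ZT10 lies near the height of the E-box and D-box output in WT mice.

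Each library held between 18761156 and 19871678 counts, and the genotypes were sequenced alike (LKO 18761156 to 19546956, WT 18947736 to 19871678). Levels are given as CPM (counts per 1000000 counts, scaled by edgeR's TMM factors), which do not correct for gene length, so levels are compared between mice and not between genes. The 12 libraries at ZT10 were fitted in edgeR. Adjustment was by Benjamini-Hochberg over the 13442 genes left by the filter on low counts. A gene with an adjusted p under 0.05 is said to have changed, or to be called. Fold changes are LKO against WT on the log2 scale with their standard errors. Each standard error was derived from the test, as the size of the change divided by the square root of edgeR's quasi-likelihood F. With 3 mice a group, a p measures only the spread among the mice of the fit. GF and SPF mice of ZT10 share the estimate of that spread, to which edgeR also adds information from other genes. RNA came from whole liver, so fewer cells of a type and less RNA per cell cannot be told apart. Libraries of other hours that stood apart were those labelled GF WT ZT6 replicate 3, with 6113 CPM of Cyp3a11 against 745 and 585 in its group, and SPF WT ZT14 replicate 3, with 372 CPM against 5018 and 5486.

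In GF liver at ZT10 the absence of Bmal1 was accompanied by a change in 1764 of 13442 genes tested, or 13.1% (edgeR). Of these, 851 rose (6.33%) and 913 fell (6.79%), and 761 changed by at least 1 on the log2 scale, 381 upward and 380 downward. The 3 LKO and 3 WT values did not overlap for 1746 of the 1764 called genes, where 30.3% of all genes tested did not overlap. The median change of all genes was 0.01 on the log2 scale. The shares of all genes called higher (6.33%) and lower (6.79%) are the background for the list counts given below. No list was tested against them.

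The clock genes were rearranged rather than uniformly lowered. Arntl (chromosome 7, 113207465 to 113314126, GRCm38) was the targeted gene, and its counts cover the whole gene and not the deleted part, so they do not check the genotype of a library. Its level was 0.534, 0.331 and 0.956 CPM in the WT libraries and 9.42, 8.76 and 7.37 CPM in the LKO libraries. Every LKO library thus held more reads from the disrupted gene than any WT library at this hour, a log2 change of 3.80 ± 0.33 (SE, n = 3 per group, edgeR adjusted p = 2.48e-06). Npas2, which can take the place of Clock, was nearly silent in WT, with 0.107, 0.110 and 0.169 CPM, and reached 20.6, 21.1 and 18.9 CPM in LKO. Since WT libraries held only 7 counts in sum against 1186 in LKO libraries, the ratio of 158 had a 95% exact (Clopper-Pearson) interval of 76.3 to 393, for counting error only, and edgeR gave an adjusted p of 1.41e-09. Clock itself stood at 33.7, 37.7 and 38 CPM in WT and at 108, 102 and 111 CPM in LKO, a rise of 1.56 ± 0.14 (adjusted p = 3.25e-06). Rora, the activator at ROR elements, did not pass the test, with 0.33 ± 0.13 and an adjusted p of 0.128. Hence 3 of these 4 activators were higher and none was lower, with a median change of 2.68.

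Among the 10 repressors of the clock, 6 fell, 1 rose and 3 did not pass the test, with a median change of -1.60. Per3, a period repressor, measured 28.2, 33.9 and 31.4 CPM in WT and 3.91, 3.31 and 3.61 CPM in LKO. All LKO values lay far under the WT range, a fall of 3.11 ± 0.24 on the log2 scale (edgeR adjusted p = 7.64e-07). Nr1d2 went from 118, 144 and 126 CPM to 18.0, 18.2 and 20.3 CPM, and Nr1d1 from 24.4, 23 and 30.8 CPM to 5.46, 3.72 and 4.70 CPM. These nuclear receptors fell by 2.78 ± 0.17 and 2.49 ± 0.25. Ciart, a repressor of Clock and Bmal1, measured 15.7, 13.1 and 14.1 CPM in WT and 0.251, 1.73 and 0.784 CPM in LKO, a change of -3.94 ± 0.43. Bhlhe41, which competes for E-boxes, changed by -3.68 ± 0.47, whereas its relative Bhlhe40 gave 0.24 ± 0.19 and did not pass. Cry1 moved the other way, from 13.9, 10.7 and 13.7 CPM to 54, 69.5 and 63.4 CPM, a rise of 2.29 ± 0.17 (adjusted p = 5.65e-07). Per2 fell by only 0.70 ± 0.18 (adjusted p = 0.0163), a call that was lost on leaving out any 1 of 3 libraries (WT replicate 1, WT replicate 3 or LKO replicate 3), with an adjusted p of up to 0.0694. Per1 and Cry2 gave -0.33 ± 0.17 and 0.26 ± 0.15, neither of which passed the test.

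The output arm was split in the same manner. Dbp, a strongly rhythmic activator at D-boxes, measured 55.2, 98.1 and 85.9 CPM in WT and 6.66, 5.60 and 4.39 CPM in LKO. The groups were far apart although the WT mice ranged widely, and the log2 change was -3.84 ± 0.34 (edgeR adjusted p = 2.67e-06). Tef, with 280, 271 and 261 CPM in WT and 111, 122 and 121 CPM in LKO, fell by 1.20 ± 0.11. Hlf narrowly missed the threshold, with -0.61 ± 0.19 and an adjusted p of 0.0513. Nfil3, the competitor at D-boxes, rose by 1.25 ± 0.24 (adjusted p = 2.13e-03), from 16.3, 11.2 and 11.9 CPM to 25.3, 26.6 and 41.9 CPM. Thus of the 4 factors at D-boxes, 2 activators fell and the competing repressor rose.

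**Figure D1:**
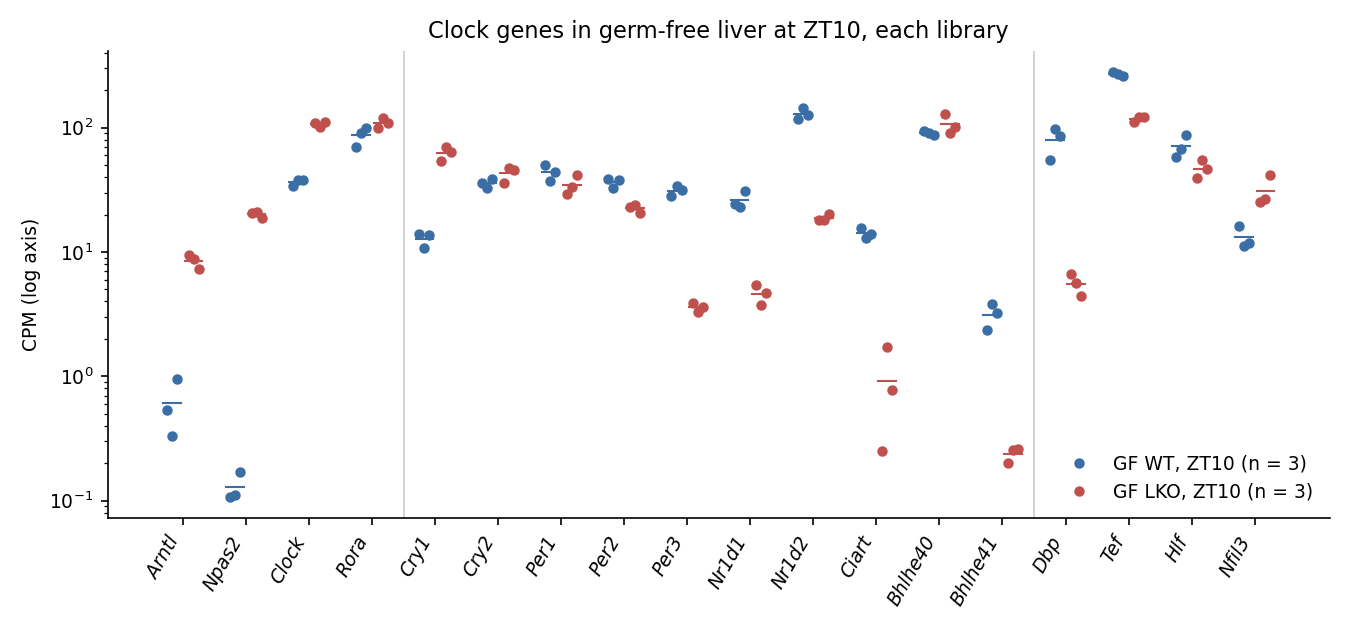
Level of 18 clock genes in each GF library at ZT10 (CPM, log axis), with WT in blue, LKO in red and a line at each mean. Grey lines part activators, repressors, and D-box factors. Arntl, Npas2, Clock, Cry1 and Nfil3 sat higher in LKO, and Per3, Nr1d1, Nr1d2, Ciart, Bhlhe41, Dbp and Tef lower, with no overlap.

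Promoters of 5 clock genes and of Alb, the serum albumin gene, are printed because these genes rose or fell and hold a match to an element of this network. The RefSeq promoters (GRCm38.p6) reach from 250 bases before to 50 bases after a start. They were searched on both strands for an E-box (CACGTG), a D-box (TTATGTAA or TTACGTAA) and a ROR element (TAGGTCA or TGGGTCA), none of which contains another. The stretches are the 250 bases before the start, 5′ to 3′ in the direction of the gene, apart from Arntl, where the 30 bases around a match just after the start are given. Capitals mark the matches, which on the opposite strand read as the reverse complement. Ciart, which fell, lies at chr3:95882229-95882478 (minus strand) and has 3 E-boxes, and Cry1, which rose, at chr10:85185055-85185304 (minus strand) with 1 E-box. Per3, which fell, lies at chr4:151044666-151044915 (minus strand) and has 2 D-boxes, as does the albumin gene Alb at chr5:90460620-90460869 (plus strand), which also fell. Nfil3 at chr13:52981040-52981289 (minus strand) and Arntl at chr7:113207530-113207559 (plus strand), both of which rose, have 1 ROR element each.
Ciart: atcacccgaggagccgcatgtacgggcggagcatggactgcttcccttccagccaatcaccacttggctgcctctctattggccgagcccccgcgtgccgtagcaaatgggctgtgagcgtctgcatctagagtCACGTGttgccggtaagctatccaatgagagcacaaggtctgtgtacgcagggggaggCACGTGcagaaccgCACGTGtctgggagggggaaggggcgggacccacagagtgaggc
Cry1: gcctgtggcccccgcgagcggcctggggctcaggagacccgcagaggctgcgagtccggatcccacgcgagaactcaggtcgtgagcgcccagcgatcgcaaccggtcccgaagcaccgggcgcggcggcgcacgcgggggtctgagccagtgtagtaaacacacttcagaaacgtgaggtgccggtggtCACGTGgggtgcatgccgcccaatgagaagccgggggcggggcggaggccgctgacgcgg
Per3: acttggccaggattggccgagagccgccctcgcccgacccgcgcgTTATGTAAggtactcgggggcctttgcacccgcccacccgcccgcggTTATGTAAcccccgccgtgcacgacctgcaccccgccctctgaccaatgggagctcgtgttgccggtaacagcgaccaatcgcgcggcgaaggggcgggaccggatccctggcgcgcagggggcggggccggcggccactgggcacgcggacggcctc
Alb: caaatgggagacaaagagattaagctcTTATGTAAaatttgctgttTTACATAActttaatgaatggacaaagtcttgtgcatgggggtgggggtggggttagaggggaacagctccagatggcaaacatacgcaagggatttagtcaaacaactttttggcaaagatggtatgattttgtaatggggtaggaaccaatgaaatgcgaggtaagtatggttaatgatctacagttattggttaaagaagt
Nfil3: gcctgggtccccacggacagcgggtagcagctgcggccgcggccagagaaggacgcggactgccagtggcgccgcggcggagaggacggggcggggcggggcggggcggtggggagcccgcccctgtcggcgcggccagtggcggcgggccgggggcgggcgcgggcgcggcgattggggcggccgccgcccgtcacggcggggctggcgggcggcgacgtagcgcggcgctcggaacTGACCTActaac
Arntl: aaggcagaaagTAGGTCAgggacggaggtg

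Over all genes tested, 10197 symbols had a promoter in the table. D-boxes were found for 22 of 709 genes called lower with a promoter (3.1%), for 6 of 636 called higher (0.943%) and for 92 of all 10197 (0.902%). E-boxes were found for 16.2% of the lower, 11.8% of the higher and 11.7% of all genes, and ROR elements for 8.89%, 9.28% and 6.38%. Of all 32851 windows in the table, 1.06% held a D-box, 7.15% an E-box and 6.45% a ROR element. Genes had 1.38 windows on average in the lower set, 1.31 in the higher set and 1.28 over all genes, and a gene counted once if any of its windows held a match. These shares are a description of letters, untested, and a match is not a bound site. Dbp, Nr1d1, Nr1d2 and Npas2 had no match to any of the 3 elements in these windows.

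The largest increases outside the clock list included cell cycle, lipid and signalling genes. Cdkn1a, the cell cycle inhibitor p21 (chromosome 17, 29090976 to 29100727), measured 1.39, 1.60 and 1.69 CPM in WT and 102, 195 and 164 CPM in LKO. The lowest LKO mouse was far above every WT mouse, and the rise was 6.62 ± 0.40 on the log2 scale (edgeR adjusted p = 9.03e-08). GF WT mice held 27.1 ± 28.6, 28.2 ± 26.9 and 33.5 ± 27.3 CPM at ZT2, ZT18 and ZT22, a level that varied widely from mouse to mouse. At the other hours the change ranged from 0.68 at ZT18 to 4.38 at ZT6, and the difference between ZT10 and the others was 4.49 ± 0.83 (adjusted p = 1.74e-03). Loxl4, a lysyl oxidase that crosslinks collagen, went from 0.695, 0.771 and 0.618 CPM to 34.6, 32.7 and 29.2 CPM, a rise of 5.52 ± 0.18. Sult1e1, the estrogen sulfotransferase, went from 1.12, 4.08 and 1.24 CPM to 92.8, 117 and 82.0 CPM, and Lpl from 44.8, 29.8 and 48.7 CPM to 921, 853 and 971 CPM, rises of 5.50 ± 0.48 and 4.48 ± 0.19. Also among the 10 largest increases were Npas2, Pitx3 (5.30 ± 0.58), the long noncoding RNA 3930402G23Rik (5.10 ± 0.33), Ntrk2, a neurotrophin receptor (4.86 ± 0.63), Defb1, a defensin (4.72 ± 0.34), and Srgap3 (4.17 ± 0.29). Ntrk2 was the least even of them, with 26.8, 16.6 and 5.07 CPM in LKO against at most 0.899 CPM in WT.

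The 10 largest decreases were led by Nat8. Nat8 went from 16.1, 23.1 and 15.5 CPM in WT to 0.451, 0.204 and 0.575 CPM in LKO, a change of -5.46 ± 0.38 (edgeR adjusted p = 2.97e-07). Rgs16, which damps signalling through G proteins and is rhythmic in liver, went from 103, 70.9 and 139 CPM to 0.952, 1.99 and 6.01 CPM (-5.13 ± 0.70). Cyp2a5, a cytochrome that oxidises coumarin and nicotine, went from 738, 726 and 562 CPM to 32.3, 30.9 and 33.7 CPM (-4.38 ± 0.23). For each of these the groups were separated by a wide gap. Acot3, a peroxisomal thioesterase whose mean level was too low for that ranking, gave -6.50 ± 0.82, but LKO libraries held 6 counts in sum against 530 in WT, a ratio of 94.9 with a 95% exact interval of 43.3 to 260, and WT mice ranged from 3.95 to 18.9 CPM. The others in the ranking were Mup17, a urinary pheromone carrier (-5.13 ± 0.44), Mme, the peptidase neprilysin (-4.53 ± 0.30), Ciart, Dbp, Pcsk4 (-3.80 ± 0.20), the collagen gene Col27a1 (-3.54 ± 0.30) and Ugt1a9, which attaches glucuronic acid to foreign compounds (-3.44 ± 0.24). Reads that aligned to several places were left out of the counts, so values of genes with near-identical copies, as in the Mup, Nat8, Acot, Ugt1a and Cyp2a families, are uncertain.

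Glycogen genes changed strongly in both directions. Gys2, the glycogen synthase of liver, measured 664, 590 and 609 CPM in WT and 101, 114 and 119 CPM in LKO. Each LKO liver thus held well under the lowest WT value, a fall of 2.48 ± 0.11 on the log2 scale (edgeR adjusted p = 4.22e-09). The subunits that bring protein phosphatase 1 to glycogen, where it activates the synthase, moved apart from one another. Ppp1r3c rose by 2.63 ± 0.22, from 32.7, 31.6 and 37.9 CPM to 160, 210 and 262 CPM, and Ppp1r3b by 1.27 ± 0.13. Ppp1r3g went from 36.8, 38.1 and 49.3 CPM to 4.36, 1.27 and 12.4 CPM (-2.78 ± 0.63, adjusted p = 7.99e-03), a call lost in the fit of all 36 GF libraries (adjusted p = 0.0923). The list of 9 glycogen genes had 2 higher and 3 lower, with a median of -0.12, the remaining call being Gbe1, the branching enzyme (-0.53). The fall of Gys2 was deepest at ZT10 (-2.48) and ZT14 (-2.36) and smallest at ZT2 (-0.46), and its difference between ZT10 and the other hours was -1.05 ± 0.12 (adjusted p = 1.83e-06).

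Genes that handle glucose gave smaller changes. Slc2a2, the glucose transporter of hepatocytes, fell from 645, 580 and 626 CPM to 320, 311 and 331 CPM (-0.94 ± 0.13, edgeR adjusted p = 1.3e-04), and its groups did not overlap. Ldha, lactate dehydrogenase, rose by 0.68 ± 0.13 and Pfkfb3, which makes an activator of glycolysis, gave -1.19 ± 0.26, a call lost in the fit of all 36 GF libraries (adjusted p = 0.173). Of 17 glycolysis genes 2 were higher and 2 lower (median -0.18), against 6.33% and 6.79% of all genes. Among 13 gluconeogenesis genes 1 was higher and 3 were lower (median -0.31). Fbp1, fructose bisphosphatase, fell from 995, 978 and 1123 CPM to 715, 741 and 751 CPM (-0.49 ± 0.10, adjusted p = 4.38e-03), and Creb3l3, a fasting-induced factor, by 0.45 ± 0.09. G6pc, the last step of glucose release, gave 1.24 ± 0.33 (adjusted p = 0.0216) and Gpt2, alanine transaminase, -0.49 ± 0.15, calls that were lost without any 1 of 4 and of 5 of the 6 libraries, with an adjusted p of up to 0.0972 and 0.172. The call of Gpt2 was also lost in the fit of the 6 GF libraries of ZT10 alone. Pck1, the rate-limiting enzyme of gluconeogenesis, stood at -0.02 ± 0.21 and Pck2 at -0.33 ± 0.23.

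At the pyruvate branch point 2 of 14 genes were higher and 4 lower, with a median of -0.32. Pdk4, a kinase that shuts off pyruvate dehydrogenase, rose from 3.63, 4.30 and 5.23 CPM to 16.8, 14.5 and 19.7 CPM (1.96 ± 0.28, edgeR adjusted p = 2.29e-04), whereas its relative Pdk2 fell by 0.82 ± 0.12. Me1, malic enzyme, which feeds NADPH to fat synthesis, fell by 1.28 ± 0.23. Pdp1, the phosphatase that opposes the kinases, gave 0.84 ± 0.22, a call lost without any 1 of 4 libraries, with an adjusted p of up to 0.0879. Its call was also lost in the fit without a filter on low counts.

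Fat metabolism held some of the widest separations. Elovl3, which lengthens fatty acids and is rhythmic in male liver, measured 107, 153 and 110 CPM in WT and 1362, 2234 and 1920 CPM in LKO, a rise of 3.90 ± 0.26 (edgeR adjusted p = 2.40e-07). Insig2, which holds the SREBP factors of lipid synthesis back in the endoplasmic reticulum, rose from 69.1, 86.4 and 102 CPM to 752, 982 and 716 CPM (3.25 ± 0.23). Both genes had their lowest GF WT mean at ZT10, and their change at that hour exceeded that at the others by 2.55 ± 0.25 and 2.18 ± 0.17. Thrsp, a promoter of fat synthesis, moved in the opposite direction, from 1803, 938 and 1264 CPM to 87.3, 148 and 179 CPM (-3.27 ± 0.38), and Elovl6, which makes stearate, fell from 329, 136 and 222 CPM to 77.6, 63 and 72.7 CPM (-1.69 ± 0.26). In sum 2 of 16 genes of fatty acid synthesis were higher and 7 lower, with a median of -0.72, among them Srebf1, the master factor of that pathway (-1.23), and the desaturase Fads2 (-1.19). Acacb, the carboxylase that restrains mitochondrial oxidation, gave -1.52 ± 0.42, a call lost without any 1 of 5 libraries, with an adjusted p of up to 0.124.

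Of 16 genes of triglyceride synthesis, storage and lipolysis, 4 were higher, led by Lpl, and 6 were lower (median -0.30). Cidec, which enlarges lipid droplets, fell by 1.71 ± 0.32 (edgeR adjusted p = 2.04e-03). G0s2, an inhibitor of lipolysis, gave -1.66 ± 0.39 and Lpin2, a phosphatidate phosphatase, -0.94 ± 0.25, and both calls were lost without WT replicate 3, where the changes were -1.01 and -0.63 with adjusted p of 0.0518 and 0.0675. Both were also lost in the fit of all 36 GF libraries, and Lpin2 in that of the 6 GF libraries of ZT10 alone. Cholesterol synthesis and uptake, with 21 genes, had 1 higher (Insig2) and none lower (median 0.30).

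Of 21 genes comprising Ppara, the nuclear receptor of fasting and fat oxidation, and its targets, 10 were lower and 1 higher (Pdk4), with a median of -0.71. Aldh3a2, which oxidises fatty aldehydes, measured 371, 508 and 543 CPM in WT and 94.8, 64.4 and 110 CPM in LKO, a fall of 2.40 ± 0.20 (edgeR adjusted p = 1.36e-06). Fabp1, the fatty acid carrier of liver, gave -0.88 ± 0.21, a call lost without LKO replicate 1 or LKO replicate 2, with an adjusted p of up to 0.0528. Ppara itself measured 94.6, 143 and 200 CPM in WT and 65.5, 69.5 and 98.3 CPM in LKO, so the groups overlapped, and its -0.91 ± 0.28 (adjusted p = 0.0480) was lost in DESeq2 and without any 1 of 4 libraries, with an adjusted p of up to 0.226. Cyp4a14, a fatty acid hydroxylase, also overlapped (-1.84 ± 0.52) and was lost without any 1 of 4 libraries, with an adjusted p of up to 0.124. Its call was also lost in the fit of all 36 GF libraries and in that of the 6 GF libraries of ZT10 alone. The study names 8 genes for liver RNA, chosen on these samples and so no independent evidence of direction, of which 4 were lower (Aldh3a2, Fabp1, Ppara and Fbp1) and none higher, with a median of -0.47. The others were Pck1, Pck2, Eno1, a glycolytic enolase (-0.41 ± 0.17), and Cpt1a, the gate of mitochondrial fatty acid entry (-0.45 ± 0.15, adjusted p = 0.0723).

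Peroxisomal genes split, with 4 of 24 higher and 7 lower (median -0.16). Abcd2, an importer of very long fatty acids, fell from 14.4, 29.4 and 37.2 CPM to 5.31, 3.87 and 6.11 CPM (-2.40 ± 0.34, edgeR adjusted p = 1.86e-04), and the thiolases Acaa1b and Acaa1a changed by -1.44 ± 0.23 and -1.24 ± 0.10. Hacl1, of phytanic acid breakdown, rose by 0.99 ± 0.20. In mitochondria 4 of 22 genes of fatty acid oxidation and ketogenesis were lower and none higher (median -0.23). These were Eci2 (-0.53), Decr1 (-0.51), Hadh (-0.49) and Acadl (-0.38), all enzymes of the oxidation spiral, and each call was lost on leaving out 1 of several libraries, the adjusted p rising to between 0.0681 and 0.168. Eci2 also lost its call in the fit with a replicate block, and Acadl in that without a filter on low counts. None of 73 nuclear genes of the respiratory chain was called (median -0.11).

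**Figure D2:**
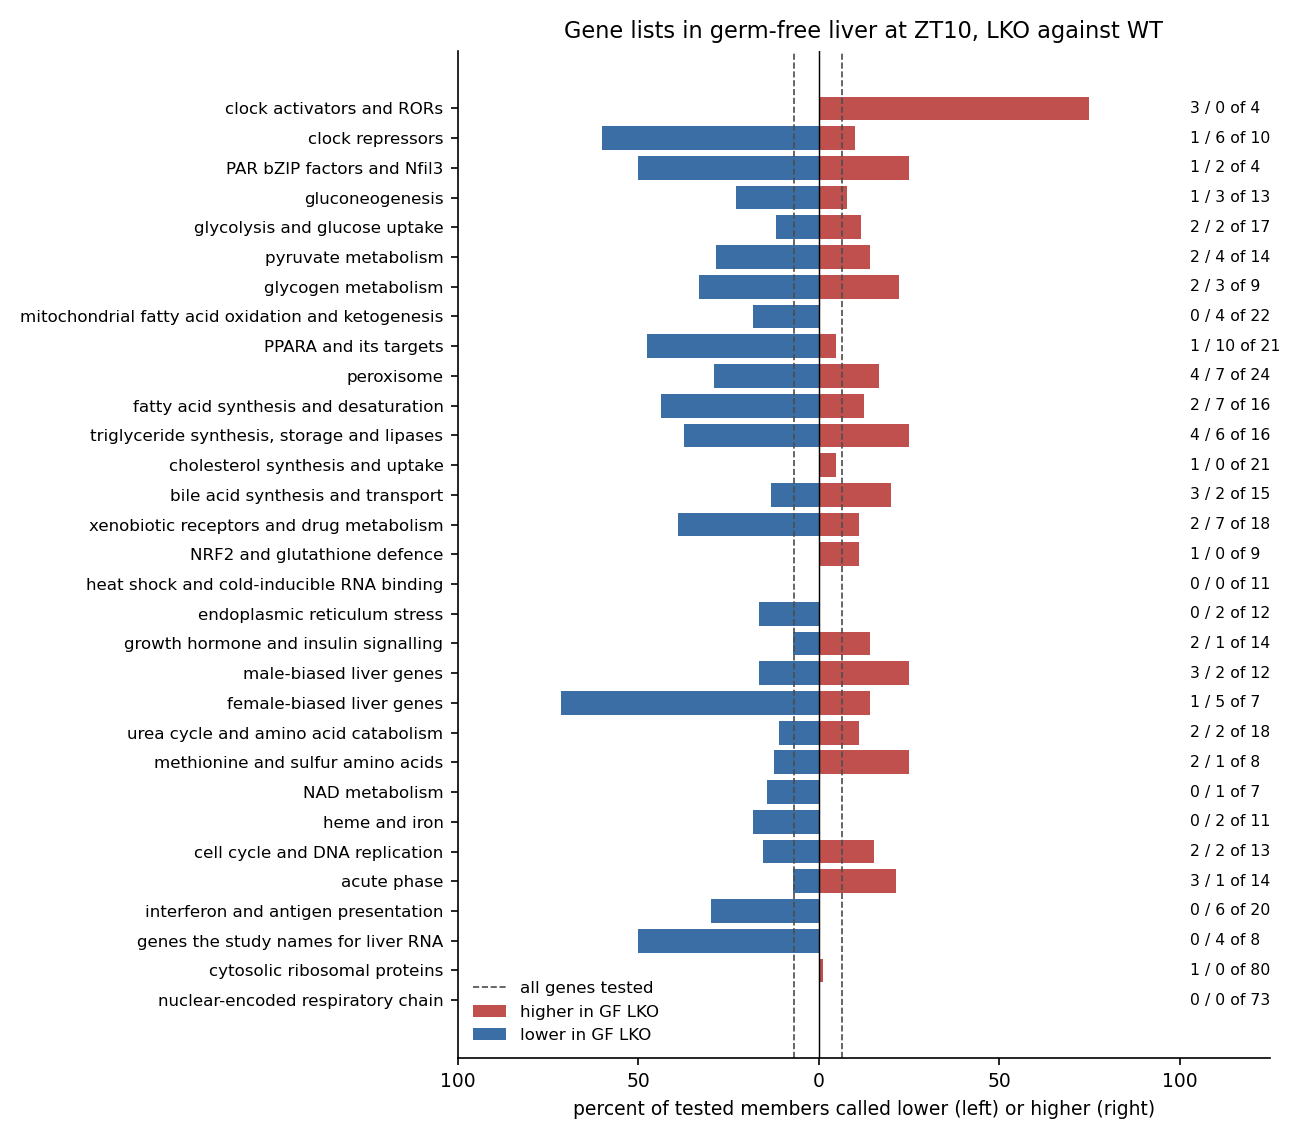
Percent of tested members of each of 31 gene lists called lower (blue, left) or higher (red, right) in GF LKO at ZT10, with the counts higher and lower of those tested at the right and dashed lines at the share of all genes (6.79% lower, 6.33% higher). All lists but those of cholesterol, ribosomal, heat shock and respiratory chain genes extended past a dashed line. In a short list 1 call is enough for that, as in the NAD list (1 of 7).

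Of 18 genes of drug metabolism and its receptors 7 were lower and 2 higher, with a median of -0.44. Por, the reductase that passes electrons to all microsomal cytochromes P450, measured 534, 476 and 673 CPM in WT and 34.1, 80.3 and 128 CPM in LKO, a fall of 2.79 ± 0.36 (edgeR adjusted p = 8.79e-05). Cyp3a11, the main drug-oxidising cytochrome of mouse liver, went from 517, 523 and 572 CPM to 119, 133 and 134 CPM, a fall of 2.06 ± 0.17. The receptors that switch such genes on, Nr1i3 and Nr1i2, also fell, by 0.64 and 0.43. Against these, Sult1e1 rose, and Cyp2b10, a target of Nr1i3, gave 2.34 ± 0.64, with a call that was lost without any 1 of 4 libraries, the adjusted p reaching 0.108. Among 9 genes of glutathione defence, Gstm1, a glutathione transferase, was higher (0.92 ± 0.12, median of the list -0.04).

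Bile acid genes numbered 3 higher and 2 lower of 15, with a median of -0.09. Cyp7b1, an enzyme of the alternative route of synthesis, rose from 641, 614 and 379 CPM to 1075, 1314 and 1457 CPM (1.24 ± 0.20, edgeR adjusted p = 7.03e-04), and Abcb11, the export pump of bile salts, rose by 0.64 ± 0.12. Akr1d1, a reductase of both routes, fell by 0.85 ± 0.14. Cyp7a1, the rate-limiting enzyme of bile acid synthesis, measured 307, 538 and 535 CPM in WT and 199, 249 and 291 CPM in LKO, values that did not overlap. Its change of -0.90 ± 0.28 had an adjusted p of 0.0483, and the call was lost without any 1 of 5 libraries, with an adjusted p of up to 0.166. The call was also lost in the fit of all 36 GF libraries and in that with a replicate block.

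Amino acid genes changed in places. Of 18 genes of the urea cycle and amino acid breakdown 2 were higher and 2 lower (median -0.06), where 6.33% and 6.79% of all genes were. Asl, argininosuccinate lyase, fell by 1.08 ± 0.20 (edgeR adjusted p = 1.84e-03), while Slc25a15 (0.71), Nags (0.44) and Glul (-0.44) lost their calls on leaving out 1 of several libraries, the adjusted p reaching 0.125, 0.129 and 0.0548. The call of Nags was also lost in the fit with a replicate block. Among 8 methionine genes Bhmt, which remakes methionine from betaine, and Cbs, which leads homocysteine to cysteine, rose by 1.27 ± 0.20 and 1.02 ± 0.13, and Ahcy, which releases homocysteine, fell by 0.71 ± 0.15 (median -0.02). In the NAD list of 7 genes the single call was Nampt, the rate-limiting enzyme of NAD salvage, with 168, 143 and 162 CPM in WT and 58.5, 55.7 and 65.5 CPM in LKO and a fall of 1.40 ± 0.11 (adjusted p = 1.31e-06).

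Cell cycle genes had 2 higher and 2 lower of 13 (median 0.15), against 6.33% and 6.79% of all genes. Wee1, the kinase that holds cells before mitosis, fell from 16.3, 20.6 and 22.2 CPM to 7.52, 4.02 and 4.08 CPM (-1.92 ± 0.24, edgeR adjusted p = 6.84e-05), the opposite of Cdkn1a. Ccnd1, cyclin D1, fell by 1.25 ± 0.22 and Mcm7, part of the replicative helicase, rose by 0.84 ± 0.18. Growth hormone and insulin signalling had 2 higher and 1 lower of 14 (median -0.02). Stat5b, which carries the growth hormone signal, rose by 0.98 ± 0.13. Irs2, an insulin receptor substrate, gave 1.31 ± 0.25, a call lost in the fit of all 36 GF libraries (adjusted p = 0.117). Igfals, a carrier of IGF1, gave -0.73 ± 0.21 and was lost without any 1 of 5 libraries, with an adjusted p of up to 0.133.

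Liver genes with a sex bias were examined because all mice were male. Of the 17 female-biased genes listed only 7 passed the filter on low counts, and 5 of those were lower and 1 higher (median -4.26). These genes are scarce in males, and the filter keeps a gene with enough counts in a single group. A gene nearly absent in LKO mice could thus pass only through WT mice. The direction of this count and median is therefore partly set by the filter. Slc22a26, a transporter, and Cyp2a4, a steroid hydroxylase, were nearly absent in LKO, with WT to LKO ratios of 36 (95% exact interval 9.58 to 303) and 22.6 (5.87 to 192) from summed counts. Cyp2b9 (-4.26 ± 0.98) lost its call without WT replicate 3, which held 8.82 CPM against 1.55 and 0.716 CPM in the other WT mice, and then stood at -2.56 (adjusted p = 0.0661). Of 12 male-biased genes 3 were higher, led by Elovl3, and 2 lower, with a median of 0.31. The lower ones included Cyp4a12a, a fatty acid hydroxylase (-0.77 ± 0.12), whose call was lost in the fit of all 36 GF libraries (adjusted p = 0.0818). Moxd1 ranged from 7.36 to 136 CPM in WT and from 301 to 436 CPM in LKO, and its 2.55 ± 0.66 lost the call without WT replicate 1, at 2.02 and an adjusted p of 0.0819. Its call was also lost in the fit of all 36 GF libraries.

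Of 20 genes of interferon response and antigen presentation 6 were lower and none higher, with a median of -0.69. H2-K1, a class I molecule that presents peptides, fell from 1287, 1233 and 1167 CPM to 743, 686 and 712 CPM (-0.78 ± 0.11, edgeR adjusted p = 1.33e-04), and its neighbour H2-D1 by 0.71. Psmb8 and Psmb9, subunits of the immunoproteasome, gave -0.82 ± 0.19 and -0.78 ± 0.19, lost without WT replicate 1 (adjusted p = 0.0511) and without WT replicate 2 (adjusted p = 0.0723), and Ifit3, an antiviral protein, gave -0.72 ± 0.21, lost without any 1 of 4 libraries with an adjusted p of up to 0.138. The call of Ifit3 was also lost in the fit of all 36 GF libraries. Of 14 acute phase genes 3 were higher, Fgg and Fgb of fibrinogen by 0.73 each and Apcs by 0.69, and Saa3 fell by 1.66 (median of the list -0.06), with the call of Apcs lost without any 1 of 5 libraries and an adjusted p of up to 0.250. The call of Apcs was also lost with RLE size factors and in the fit with a replicate block. None of 11 heat shock genes was called (median -0.01). Of 12 genes of endoplasmic reticulum stress, Asns, asparagine synthetase, and Trib3, a pseudokinase, were lower (median -0.11), with Asns at 15.1 CPM in WT replicate 2 and at 1.66 and 2.42 CPM in the other WT mice, and Trib3 at -1.11 without WT replicate 3, where its call was lost (adjusted p = 0.0823). Trib3 also lost its call in the fit of all 36 GF libraries. Hamp2, a hepcidin, and Tfrc, the transferrin receptor, were the lower ones of 11 heme and iron genes (-1.60 ± 0.35 and -0.87 ± 0.20, median -0.32), and the call of Tfrc was lost in the fit of all 36 GF libraries (adjusted p = 0.185). A single ribosomal protein gene of 80, Rpl22l1, was higher (0.65 ± 0.18, median of the list 0.27), and lost its call without any 1 of 4 libraries, with an adjusted p of up to 0.0987.

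The livers were checked against markers of their cells. Of 8 hepatocyte markers only Alb was called, and the others, which include Apob, Ttr, Apoa1 and Hnf4a, were not. Alb, serum albumin, was chosen here after its values were seen. It measured 106710, 102310 and 97557 CPM in WT and 32104, 28192 and 34416 CPM in LKO, so that the 3 LKO livers were tightly grouped far under the WT range, a fall of 1.69 ± 0.16 (edgeR adjusted p = 5.57e-06). It took 9.16 to 10.05% of all counts in WT and 2.83 to 3.42% in LKO. Since Cre in LKO mice is made from the Albumin promoter, an effect of the transgene on Alb and one of the loss of Bmal1 cannot be told apart here.

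Of 5 bile duct cell markers tested, Sox9 (1.40) and Spp1 (1.12) were higher and none was lower, but the median of the list was -0.025. Its summed level was 38.2 to 52.4 CPM in WT and 88.3 to 112.8 CPM in LKO. The part of these cells in the results was not tested. Endothelial markers Stab2 (0.63) and Lyve1 (0.73) were the only other ones higher. The median of their list was -0.10, and the summed list overlapped (278 to 314 CPM in WT, 288 to 297 in LKO). None of 8 markers each of Kupffer cells and stellate cells was called, with sums of 192 to 327 and 338 to 355 CPM in WT and 201 to 238 and 382 to 418 CPM in LKO. Lymphoid and neutrophil markers were low, with Mpo and Ly6g at 0 in every library, and no T, NK, B cell or neutrophil marker was called (sums in WT and LKO of 1.80 to 5.07 and 2.04 to 3.87 CPM for T and NK cells, 5.84 to 11.7 and 11.4 to 15.9 CPM for B cells, and 0.0562 to 6.28 and 0.852 to 2.25 CPM for neutrophils). Pancreas and fat markers summed to at most 8.38 CPM in any library, and the adipocyte gene Cfd, with 159 counts in WT against 1 in LKO, owed 149 of them to WT replicate 3. Of 5 red cell markers Alas2, of heme synthesis, was lower (-0.88), while the median of the list was 0.33. Their sums were 249 to 291 CPM in WT and 196 to 285 CPM in LKO.

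The question of whether microbes alter the effect of the hepatic clock was put to the 12 libraries at ZT10. In SPF mice 1603 genes (11.9%) were called for genotype, and 1092 genes were called in both settings, which is 61.9% of the GF calls and 68.1% of the SPF calls. All 1092 went the same way, and of the 1764 GF calls 1726 had the same sign in SPF. The share with the same sign over all genes tested was not counted. The test of the difference itself called 1 gene (0.00744%), Cyp3a11, with 691 genes at an unadjusted p under 0.05 in edgeR and 23 adjusted calls in DESeq2. Cyp3a11 stood at 5176 ± 970 CPM in SPF WT and 6494 ± 1377 CPM in SPF LKO mice (SD, n = 3), ranges of 4547 to 6294 and 5425 to 8047 CPM that overlapped (0.33 on the log2 scale, edgeR adjusted p = 0.219). Both GF groups lay far under them, and the difference of the effects was -2.39 ± 0.23 (adjusted p = 7.47e-04) and kept its call on leaving out each of the 12 libraries in turn (-2.56 to -2.21). In GF mice the Cyp3a11 effect was -1.46 (adjusted p = 0.0975) at ZT2 and between -3.90 and -1.85 at the other hours, where it passed the test, ZT6 including the library that stood apart. Its size at ZT10 differed from the mean of the others by 0.17 ± 0.54 (adjusted p = 0.952).

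Apart from Cyp3a11, genes with a larger fall or rise in GF than in SPF mice by value did not pass the edgeR test of the difference. In DESeq2, 5 further named genes passed the test of the difference. Gys2 changed by -2.48 in GF and -1.56 in SPF mice, with a difference of -0.92 and an edgeR adjusted p of 0.0813. Its WT level was 621 ± 38.4 CPM in GF and 340 ± 27.6 CPM in SPF mice, and its LKO level 111 ± 9.27 and 115 ± 5.13 CPM. H2-K1 changed by -0.78 in GF and -0.17 in SPF mice, with a difference of -0.61 (edgeR adjusted p = 0.504). The clock genes changed alike in direction, with Arntl at 3.80 and 2.83, Per3 at -3.11 and -2.40 and Dbp at -3.84 and -2.65 in GF and SPF mice.

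**Figure D3:**
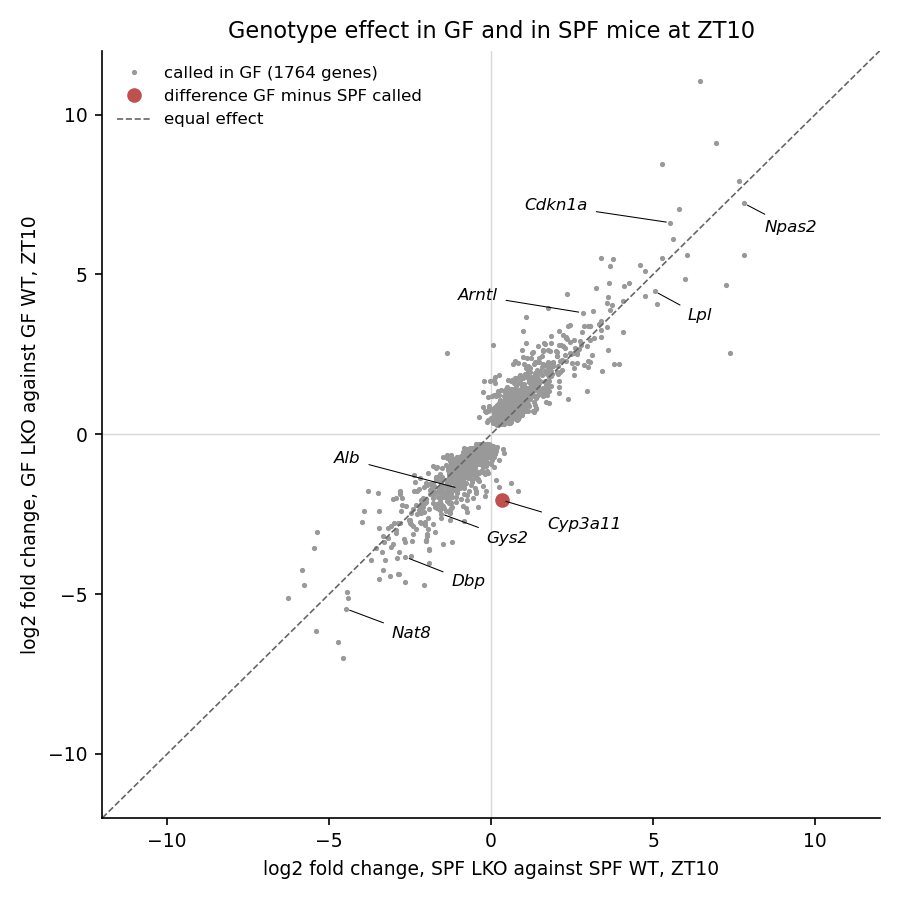
Genotype effect at ZT10 (log2 fold change, LKO against WT) in GF mice on the vertical axis and in SPF mice on the horizontal axis, for the 1764 genes called in GF mice, with the dashed line at equal effects. Nearly all points share their sign (1726 of 1764), and Cyp3a11 (red), at -2.06 in GF and 0.33 in SPF, was the 1 gene among them whose difference passed the test.

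Genes that fell and genes that rose were set against the hour of their highest mean in mice with a clock, as a description with no test. Peak hours were taken from SPF WT livers, as the ZT with the highest mean log2 CPM. No test for a rhythm was applied, so every gene was given a peak hour, whether or not its level cycles. These livers are not in the GF contrast, but those of ZT10 shared its fit, its filter and its estimate of the spread. Of the 913 genes lower in GF LKO at ZT10, 376 (41.2%) peaked at ZT10 and 220 (24.1%) at ZT6, against 2684 (20%) and 2752 (20.5%) of the 13442 genes tested. Of the 851 genes that were higher, 308 (36.2%) peaked at ZT22 and 198 (23.3%) at ZT2, against 14.5% and 14.0% of all genes, and 48 (5.64%) peaked at ZT10. When replicate 3 of SPF WT at ZT14, which stood apart for Cyp3a11, was left out, the shares of lower genes at ZT10 and of higher genes at ZT22 were 38.1% and 35.3%. With peaks from GF WT mice, which share libraries with the comparison, the lower genes again peaked most often at ZT10 (42.4%, against 20.8% of all genes), but at ZT6 their share was 10.4%, under the 14.7% of all genes. By the same peaks the higher genes were most often ones of ZT2 (33.4%), with ZT22 second (26.7%).

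**Figure D4:**
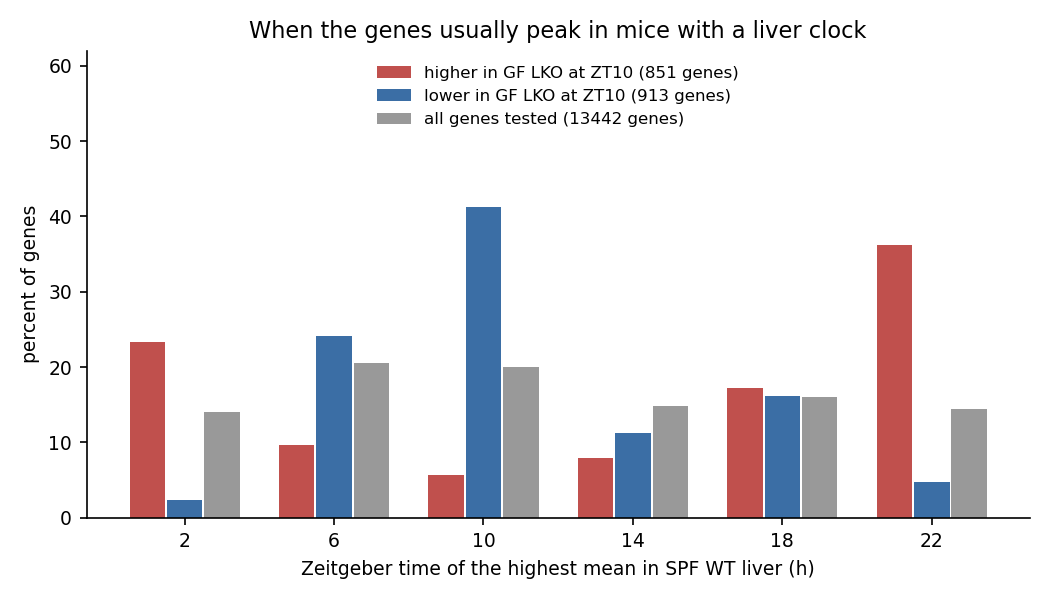
Share of genes (percent) by the zeitgeber time of their highest mean in SPF WT liver, for genes higher in GF LKO at ZT10 (red), lower (blue) and all genes tested (grey). Every gene was given such a time, with no test for a rhythm. By these SPF peaks lower genes were most often ones of ZT10 (41.2%) and higher genes ones of ZT22 (36.2%), whereas by GF WT peaks higher genes were most often ones of ZT2 (33.4%).

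The genotype effect at ZT10 was set against the mean effect at the other 5 ZT in a fit of all 36 GF libraries, and 237 of 13806 genes tested (1.72%) differed, 154 in the positive and 83 in the negative direction (edgeR), or 319 when replicate 3 of GF WT at ZT6 was left out. Arntl, the targeted gene, was among the 237. Its LKO means stayed between 8.51 ± 1.05 CPM at ZT10 and 11.3 ± 1.90 CPM at ZT22, while GF WT moved between 0.607 ± 0.319 CPM at ZT10 and 36 ± 3.98 CPM at ZT22 (mean ± SD, n = 3). The log2 change was therefore 3.80 at ZT10 but -1.67 at ZT22 and -1.43 at ZT2, and the difference between ZT10 and the others was 4.48 ± 0.41 (adjusted p = 1.38e-08). Dbp changed by -3.84 at ZT10 and -3.80 at ZT6 but by 0.44 at ZT18 and 1.42 at ZT22, neither of which passed the test, and its difference was -3.35 ± 0.36. Per3 fell by 3.11 at ZT10 and rose by 1.37 at ZT2 (adjusted p = 2.99e-03). Tef likewise fell by 1.20 at ZT10 and rose by 1.14 at ZT2 and 0.99 at ZT22. Over the day the LKO means of Per3 kept between 3.26 and 5.67 CPM while those of WT ran from 1.25 to 31.2 CPM, and those of Dbp kept between 2.17 and 5.55 CPM against 0.903 to 79.7 CPM in WT.

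Not every large effect belonged to the hour. Nat8, an acetyltransferase gene of liver and kidney, changed by -5.97 to -5.28 on the log2 scale over the 6 ZT, and its effect at ZT10 differed from the others by 0.22 ± 0.62 (adjusted p = 0.948). Lpl, the lipoprotein lipase that frees fatty acids from circulating triglycerides, was higher by 3.56 to 4.48 at all 6 ZT, with a difference of 0.53 ± 0.37 (adjusted p = 0.667). Alb changed by -1.88 to -1.65 over the 6 ZT, each past the threshold, with a difference of 0.02 ± 0.18 (adjusted p = 0.988). For these a p above the threshold does not show equal effects.

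**Figure D5:**
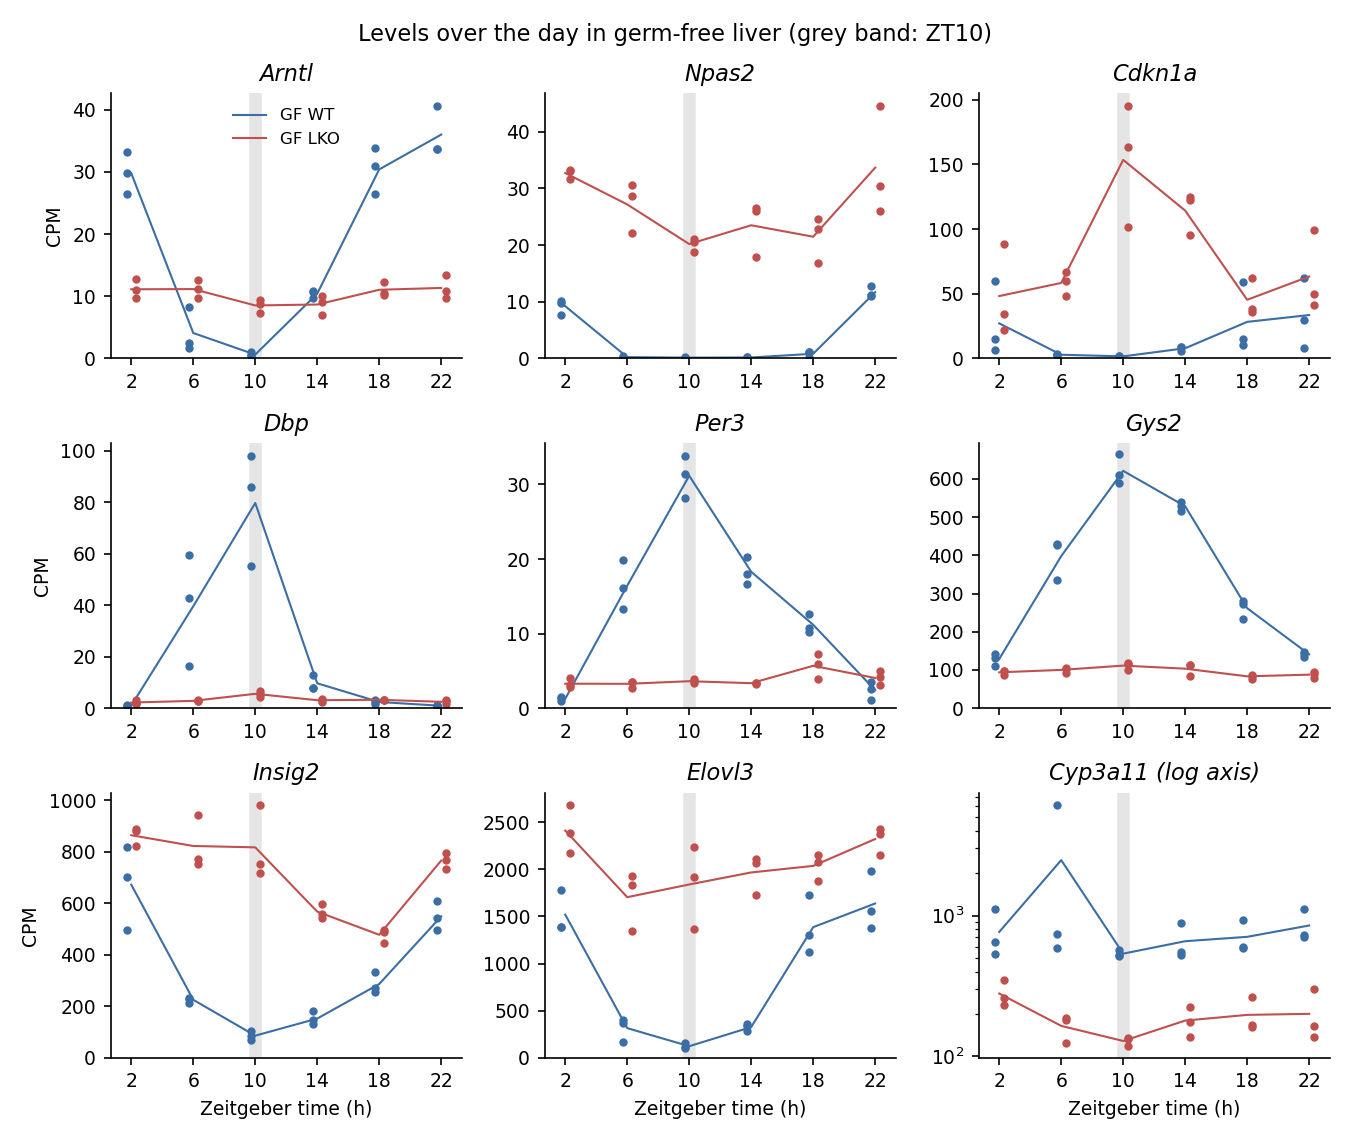
Level of 9 genes over the day in GF liver (CPM, linear axes apart from Cyp3a11), with each library as a point and lines through the means of 3 mice, WT in blue and LKO in red. At ZT10 (grey band) WT was at its lowest for Arntl, Npas2, Cdkn1a, Insig2 and Elovl3 and at its highest for Dbp, Per3 and Gys2, and replicate 3 of GF WT at ZT6 stands apart for Cyp3a11.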

How the data were processed

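Liver mRNA was sequenced from stranded, single-end libraries. Per the labels and the study's methods, the authors aligned reads with STAR 2.6.1b to mm10 (GRCm38) and deposited raw counts per gene from featureCounts 2.0.0, which ignored strand and multi-mapping reads, so overlapping and antisense genes cannot be told apart. The table held 55573 genes (Ensembl 97) for 72 libraries. Names and types came from GENCODE vM21 (55480 matched). Counts were tested in R 4.3.3 with edgeR 4.0.16 (filterByExpr, TMM, glmQLFit, Benjamini-Hochberg), with DESeq2 1.42.0 as an alternative, after a test on simulated data. The rule for named genes took every clock gene and gene the study names, the 10 largest changes each way without overlap (mean log2 CPM of 1 or more), up to 4 called members of each list, and up to 5 genes each way per difference test. Other named genes were chosen after their values were seen, as were the printed promoters. The comparison, the 31 gene lists and 11 marker lists were chosen with earlier results of these data known. Results for a few genes are not reported here.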

Additional observations from a re-analysis of the deposited data

Results flagged for a closer look

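The following genes differed in their genotype effect between settings by a test of the difference itself (edgeR, adjusted over all genes), and are given as log2 differences without an explanation. Between GF and SPF mice at ZT10, Cyp3a11 differed by -2.39 (adjusted p = 7.47e-04).

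Between ZT10 and the mean of the other 5 ZT in GF mice, the clock genes Arntl, Npas2, Clock and Nfil3 had a more positive effect at ZT10, by 4.48, 2.81, 1.22 and 1.22, and Dbp, Per3, Tef and Nr1d2 a more negative one, by -3.35, -2.38, -1.31 and -0.75. Outside the clock the effect was more positive for Cdkn1a (4.49), Pitx3 (3.40), Elovl3 (2.55), Insig2 (2.18), Ppp1r3c (2.13), Srgap3 (1.86), Ppp1r3b (1.30), Hacl1 (0.92) and Ldha (0.45). It was more negative for Pcsk4 (-2.47), the predicted gene Gm12718 (-2.22), Thrsp (-1.93), Cyp2a5 (-1.65), Wee1 (-1.64), Por (-1.31) and Gys2 (-1.05). The adjusted p of these 24 genes ranged up to 0.0344. Of the 24, 16 kept their call on leaving out each of the 6 GF libraries of ZT10 in turn and without replicate 3 of GF WT at ZT6, and 8 did not (Nr1d2, Nfil3, Ldha, Ppp1r3b, Hacl1, Por, Wee1 and Gm12718), with Gm12718 reaching an adjusted p of 0.469 and Ldha of 0.240.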

How the results depend on the processing

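The GF genotype effect at ZT10 (1764 calls) gave 1938 calls in DESeq2, 1766 with RLE size factors, 2156 without a filter on low counts, 1665 among protein-coding genes, 1755 from its 6 libraries alone and 1908 from all 36 GF libraries, and between 1336 and 1471 on leaving out 1 library. With a log2 fold change of at least 1 required, 761 GF and 688 SPF calls were left. The SPF effect (1603 calls) gave between 947 and 1600 on leaving out 1 library, with 947 without SPF LKO replicate 1 and 1063 without SPF LKO replicate 3. The difference between GF and SPF mice (1 call) gave 23 calls in DESeq2, 2 with RLE size factors, 208 without a filter and between 1 and 5 on leaving out 1 library. The difference between ZT10 and the other ZT (237 calls) gave 357 calls in DESeq2, 628 without a filter, 108 with the fold threshold, 319 when replicate 3 of GF WT at ZT6 was left out, and between 141 and 205 on leaving out 1 library of ZT10, with 141 without GF WT replicate 2 and 154 without GF LKO replicate 3. Of 107 named genes called in GF mice, 78 kept the call on leaving out each library in turn and 29 did not. In the other fits, 12 lost it with all 36 GF libraries, 4 with the replicate block and 3 from the 6 libraries alone. Without a filter 2 lost it, in DESeq2 1 and with RLE size factors 1. No named gene's called effect changed sign under these alternatives, whereas the share of GF calls that were higher, 48.2%, ranged from 46.1% to 51.5% (without GF LKO replicate 3) and that of SPF calls, 49.3%, from 45.4% to 50.6% (without SPF LKO replicate 1). No alternative was run for the promoter shares. Same-numbered GF WT and GF LKO mice of ZT10 did not deviate together (correlations of -0.143, 0.051 and 0.065). Different-numbered ones gave -0.177 to 0.112. With so few pairs this cannot exclude a batch shared by same-numbered mice. The fit with the replicate block gave 1607 GF and 1410 SPF calls, 1 for their difference and 235 for ZT10 against the other ZT. The 3 mice a group limit what can be called, and genes near the filter rest on few counts.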
